A study of Bos taurus with 28 samples.

Results

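COL9A3, COL4A5 and COL4A6 are 3 collagen chain genes, and their levels are described here in the endometrium of 28 heifers. The count files hold 24596 genes, and 19458 of these had reads in some heifer. They were chosen by name because the study's results tables put them forward, COL9A3 in the comparisons of HF with LF and LF with CTRL and COL4A5 and COL4A6 in that of LF with CTRL. For those pairs the log2 fold changes (log2FC) below are therefore a description without a test, and every other treatment comparison shares heifers with them. For COL9A3 the comparison of HF with CTRL also follows from the pairs that put it forward, so its p is not an independent test.

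The HF heifers (n = 10) were inseminated with semen of high fertility bulls and the LF heifers (n = 10) with semen of low fertility bulls, and the CTRL heifers (n = 8) received no semen. Within HF and within LF, 5 bulls served 2 heifers each, no bull served both treatments, and the tissue was taken 12 h after insemination. All heifers, CTRL included, had their oestrus synchronized with an intravaginal progesterone device, gonadotrophin-releasing hormone and prostaglandin F2α, and each gave 1 biopsy, from which the endometrium was cut away from the myometrium. The work ran in 2 study replicates with different heifers. The sample labels give a Holstein-Freisan background, whereas the study's animal list gives each heifer as a cross of a beef or other breed, and breed is used here as in that list. Total counts were between 14872812 and 25633259 per heifer, and no 2 heifers of a treatment had counts alike within sampling noise. Levels are in CPM (counts brought to one library size with TMM factors), gene length is not removed, and so the levels of different genes are not set against each other.

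Type IV collagen is the network-forming collagen of basement membranes, the thin sheets under epithelia and around muscle cells and vessels. Its chains join in threes, with COL4A1 and COL4A2 as the chains found in nearly all basement membranes, whereas the α5 and α6 chains encoded by COL4A5 and COL4A6 occur together in a trimer known from the basement membrane around smooth muscle cells. In the annotation of assembly ARS-UCD2.0 these 2 genes are direct neighbours on chromosome X. COL9A3 encodes one of the chains of type IX collagen, a collagen with interrupted triple helices that sits on the surface of type II collagen fibrils in cartilage, and it lies on chromosome 13 between TCFL5 and OGFR.

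COL9A3 had its highest median in HF heifers. Its level in HF heifers was 11.6 CPM at the lowest, 31.4 at the median and 102 at the highest (mean 41.3 ± 28.8, SD, n = 10). In LF heifers it was 7.02 at the lowest, 12.4 at the median and 19.4 at the highest (12.3 ± 4.33, n = 10), and in CTRL heifers 4.42, 13.2 and 37.3 (17.2 ± 12.3, n = 8). The highest heifers were HF9 at 102 CPM, HF2 at 78.0 and HF10 at 52.9, and the single HF heifer under the medians of both other treatments was HF8 at 11.6. Of the 10 HF heifers, 8 lay above every LF heifer and 4 above every CTRL heifer, so HF overlapped with both. CTRL was drawn out by CTRL2 at 37.3 and CTRL6 at 35.4 CPM, both above the HF median, while the other 6 CTRL heifers were at 15.3 CPM or less.

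**Figure D1:**
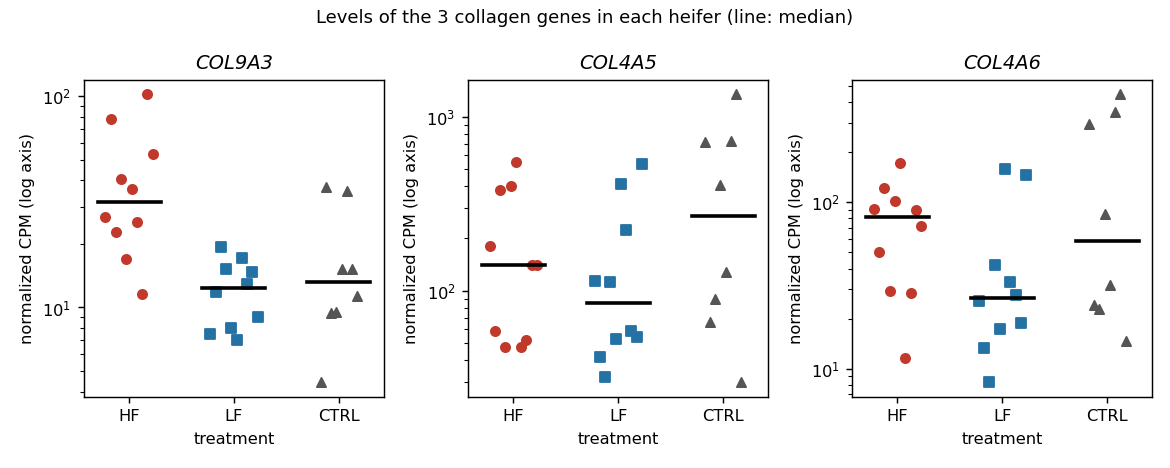
Normalized CPM on log axes of COL9A3, COL4A5 and COL4A6 in 10 HF, 10 LF and 8 CTRL heifers, with 1 point per heifer and a line at the median. COL9A3 has its median at 31.4 CPM in HF heifers against 12.4 in LF and 13.2 in CTRL, whereas COL4A5 and COL4A6 spread widely within each treatment and have their 3 highest heifers in CTRL.

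Between HF and CTRL heifers, COL9A3 had a log2FC of 1.26 (SE 0.44), a 2.40-fold difference, with an edgeR quasi-likelihood p of 0.00997 and a Benjamini-Hochberg adjusted p of 0.190 over 14885 genes. It did not pass the threshold of 0.05, and neither did it in DESeq2 (adjusted p = 0.0715). With all 28 heifers in 1 fit the log2FC was 1.2633, and it is made up of 1.7456 for HF against LF and -0.4823 for LF against CTRL. Both of those pairs put COL9A3 forward, so this p is not a test independent of the choice of the gene. edgeR called 0% of all genes in this pair at that threshold and 16.0% at an unadjusted p under 0.05. DESeq2 called 1.71% of 19178 genes after adjustment. Of the 3 members, 1 had an unadjusted p under 0.05 in edgeR and 0 passed after adjustment in either tool, which against 16.0% of all genes is no result about the members. The log2FC remained between 1.01 (without HF9) and 1.52 (without CTRL2) when single heifers were left out. Within study replicate 1 it was 1.29 and within study replicate 2 it was 1.24.

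The pairs of treatments that put COL9A3 forward gave a log2FC of 1.74 (SE 0.33) for HF against LF and -0.48 (SE 0.34) for LF against CTRL. The first is a 3.33-fold difference and had the same sign in both study replicates (1.57 and 1.89). The second shrank to -0.22 without CTRL2, the control heifer with the highest COL9A3. In HF against LF edgeR called 0% of 14793 genes after adjustment and 7.92% before it, and DESeq2 called 0.140% of 19238 genes. In LF against CTRL edgeR called 0% of 14849 genes after adjustment and 5.65% before it, and DESeq2 called 0.0104% of 19181 genes. Nothing is read from these shares for COL9A3, since the gene was chosen on these pairs. For HF against LF the epithelial keratin KRT8 had a log2FC of -0.52. Of the 3 named mesothelial markers, WT1 had 0.89, whereas UPK3B had -0.28 and UPK1B -0.39. None of these passed adjustment, and their part in the values of COL9A3 was not tested. For COL9A3 the deposited counts stood above the study's own normalized table, relative to other genes, in all 18 LF and CTRL heifers (by over 0.5 on the log2 scale), while COL4A5 and COL4A6 were within that range. The cause was not tested.

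Heifers that shared a bull were closer in COL9A3 within LF than within HF. The LF heifers were also closer as a whole, at 7.02 to 19.4 CPM against 11.6 to 102 CPM in HF. Heifers of different bulls were not compared, so no likeness by bull is read from these values. Heifers served by the same LF bull ranged from 1.03-fold apart (bull 4, LF4 at 15.2 and LF9 at 14.7 CPM) to 1.50-fold apart (bull 3). Heifers that shared an HF bull were 1.36-fold apart at the least (bull 6, HF1 at 26.7 and HF6 at 36.2 CPM) and 3.12-fold at the most (bull 10, HF5 at 17.0 and HF10 at 52.9 CPM). The highest heifer, HF9, shared bull 9 with HF4 at 40.4 CPM, and HF2 at 78.0 CPM shared bull 7 with HF7 at 25.4. No test was made of this difference in spread, and the bulls cannot be told apart from the treatments. Summing the counts of a bull's heifers left the log2FC of HF against CTRL at 1.24 (adjusted p = 0.404).

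**Figure D2:**
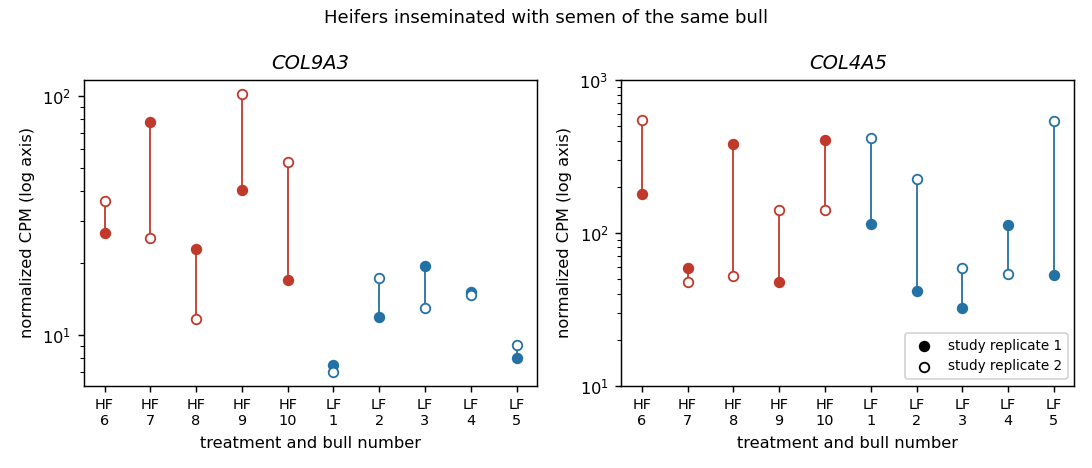
Normalized CPM on log axes of COL9A3 (left) and COL4A5 (right) in the heifers served by each of 5 HF bulls and 5 LF bulls, with filled points for study replicate 1, open points for study replicate 2 and a line joining both heifers of a bull. For COL9A3 the joined heifers are 1.36-fold to 3.12-fold apart in HF and 1.03-fold to 1.50-fold apart in LF, and for COL4A5 up to 7.33-fold apart in HF and 10.1-fold in LF.

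COL4A5 varied widely between heifers of each treatment. It had 47.5 CPM at the lowest, 140 at the median and 547 at the highest in HF heifers (mean 199.6 ± 179, n = 10). The LF heifers had 32.0, 85.2 and 534 (164 ± 175, n = 10), and the CTRL heifers 29.7, 268 and 1352 (440 ± 466, n = 8). CTRL held both ends of the range, CTRL8 at 29.7 and CTRL7 at 1352 CPM, a 45.5-fold difference. CTRL7, CTRL6 at 725 and CTRL1 at 722 CPM lay above all 20 inseminated heifers, and the remaining 5 CTRL heifers lay within or below their range.

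COL4A6 followed the same heifers. Its level was 11.6 CPM at the lowest, 81.2 at the median and 171 at the highest in HF heifers (77.0 ± 49.1, n = 10), 8.27, 26.6 and 158 in LF heifers (49.0 ± 55.2, n = 10) and 14.6, 58.7 and 448 in CTRL heifers (159 ± 177, n = 8). Again CTRL7 (448), CTRL6 (351) and CTRL1 (297 CPM) were the 3 heifers above all inseminated ones, HF6 was the highest HF heifer (171), and HF7 and LF3 were the lowest of their treatments for both genes. The whole range of COL4A6 was 54.1-fold. COL9A3 ranged 23.1-fold, while COL4A1 and COL4A2, the chains of the common type IV trimer, ranged only 5.35-fold and 4.82-fold over the same 28 heifers.

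Neither gene passed the test between treatments. For HF against CTRL the log2FC was -1.14 (SE 0.67, adjusted p = 0.414) for COL4A5 and -1.05 (SE 0.64, adjusted p = 0.430) for COL4A6. Both values rested in good part on CTRL7, without which they were -0.64 and -0.62. For HF against LF the log2FC was 0.27 (SE 0.58, adjusted p = 0.970) for COL4A5 and 0.63 (SE 0.53, adjusted p = 0.814) for COL4A6. The pair that put both genes forward, LF against CTRL, gave -1.42 (SE 0.70) for COL4A5 and -1.70 (SE 0.72) for COL4A6, and without CTRL7 these were -0.92 and -1.26. Here too the groups overlapped, since 8 of 10 LF heifers were below the CTRL median for each gene but CTRL8 had less COL4A5 than every LF heifer.

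The 2 study replicates gave different pictures of HF against LF for these genes. Among the heifers of study replicate 1 the log2FC was 1.60 for COL4A5 and 1.88 for COL4A6, and among those of study replicate 2 it was -0.49 and -0.06. The interaction of treatment with study replicate was -2.08 (SE 1.07) for COL4A5 and -1.93 (SE 0.95) for COL4A6, which did not pass adjustment over all genes (edgeR adjusted p = 0.9998 for both, unadjusted 0.0678 and 0.0569). In LF heifers the median of COL4A5 was 224 CPM in study replicate 2 and 52.6 in study replicate 1, whereas in HF heifers it was 140 in study replicate 2 and 180 in study replicate 1. Over all treatments, study replicate 2 against 1 had log2FC of 0.20 (SE 0.31) for COL9A3, 0.82 (SE 0.56) for COL4A5 and 0.91 (SE 0.53) for COL4A6 (edgeR adjusted p = 0.999 each). Between the study replicates edgeR called 0.0132% of 15163 genes after adjustment and 3.35% before it, and DESeq2 called 0.0309% of 19407 genes.

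Breed was tested with treatment in the model. Limousin crosses (n = 11) against Charolais crosses (n = 10) had log2FC of 0.51 (SE 0.38, adjusted p = 0.831) for COL9A3, -0.29 (SE 0.64, adjusted p = 0.894) for COL4A5 and -0.24 (SE 0.62, adjusted p = 0.908) for COL4A6 in edgeR. For breed edgeR called 0% of 15163 genes after adjustment and 5.43% at an unadjusted p under 0.05, and DESeq2 called 0.0258% of 19408 genes. The CTRL treatment held 1 Charolais cross, CTRL7, the heifer with the highest COL4A5 and COL4A6. With breed as a covariate the log2FC of COL9A3 for HF against CTRL was 1.45 (adjusted p = 0.322).

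COL4A5 and COL4A6 moved together from heifer to heifer. Pearson's r of their log2 CPM was 0.94 over 28 heifers (Spearman's rho 0.93), and it was 0.89 within HF, 0.94 within LF and 0.97 within CTRL. Both come from the same libraries and share their scaling, so these are descriptions. COL4A1 and COL4A2 formed a pair of their own, with r of 0.95 between them, and COL4A5 with COL4A1 gave only 0.17. COL9A3 followed neither chain, with r of -0.12 with COL4A5 and 0.06 with COL4A6.

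Among the 1512 genes with a name in the tested set, the pattern of COL4A5 about its treatment means was most like those of MYLK (r = 0.95, over 28 heifers), MEIS2 (0.94), COL4A6 (0.94), FLNA (0.94) and BAG2 (0.94). MYLK encodes myosin light chain kinase, which starts smooth muscle contraction, MEIS2 is a homeobox transcription factor, FLNA is the actin crosslinker filamin A and BAG2 is a co-chaperone of HSP70. Genes most like COL4A6 included COL4A5 (0.94), SLC24A3 (0.93), MYLK (0.93) and CAP2 (0.92), where SLC24A3 is a potassium-dependent sodium/calcium exchanger and CAP2 an actin-binding cyclase-associated protein. Of all 15162 other genes tested, 39 had r over 0.9 with COL4A5 and 12 with COL4A6, and for COL4A6 the first of them all was COL4A5. COL9A3 had 0 genes over 0.9 and 1 over 0.8. Its nearest named genes were EBI3 (0.74), PLIN3 (0.67), FBXO6 (0.64), SLC9A3R2 (0.64) and PTGDS (0.63), where EBI3 is a subunit of the cytokines interleukin 27 and 35, PLIN3 coats lipid droplets and PTGDS makes prostaglandin D2. Among all 15162 genes EBI3 had rank 5 and PTGDS rank 47 in likeness to COL9A3, and the closest gene (r = 0.83) carried no name. HF9 was the highest of the 28 heifers for COL9A3, EBI3 (5.42 CPM) and PTGDS (554 CPM) alike. EBI3 was low, at 2.01 CPM at the median over 28 heifers.

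Smooth muscle markers moved with COL4A5 and COL4A6. Of 13 listed smooth muscle genes 6 carry a name, ACTA2, MYLK, SMTN, SYNM, CALD1 and MYOCD. They encode smooth muscle actin, the kinase above, smoothelin, synemin, caldesmon and the transcriptional coactivator myocardin. None was at 0 in any heifer. MYOCD was low, at 0.049 CPM in HF7 and 1.65 CPM at the median over 28 heifers. It weighs as much as each other marker in the mean of log2 CPM used here. The summed level of the 6 markers was 740 CPM at the lowest, 1283 at the median and 6223 at the highest in HF heifers. It was 517, 1991 and 4695 in LF heifers and 1036, 5153 and 8656 in CTRL heifers. The mean log2 CPM of the 6 markers was 6.14 at the median in HF, 6.16 in LF and 7.42 in CTRL. Names came mostly from the rows with the smallest p in the study's table of LF against CTRL. A named marker is therefore more likely than others to differ from CTRL, and the higher mean in CTRL is a description. Over 28 heifers r of this mean was 0.95 with COL4A5 and 0.91 with COL4A6, against 0.34 with COL4A1, 0.41 with COL4A2 and -0.26 with COL9A3. CTRL1, CTRL7 and CTRL6, the 3 heifers with the most COL4A5 and COL4A6, also had the highest means (9.01, 8.76 and 8.58). In bulk tissue fewer cells of a type and less RNA per cell cannot be told apart.

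**Figure D3:**
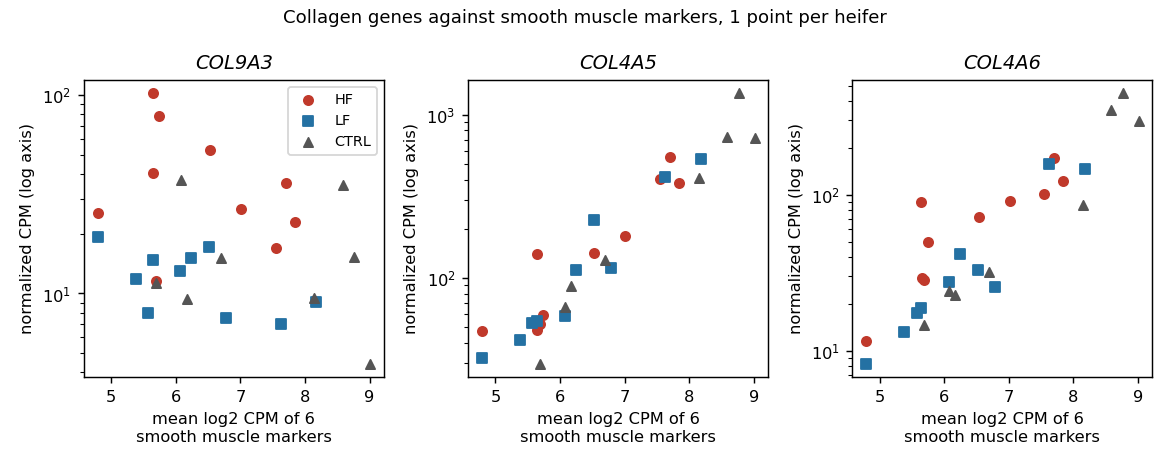
Normalized CPM on log axes of COL9A3, COL4A5 and COL4A6 against the mean log2 CPM of 6 smooth muscle markers, with 1 point per heifer (10 HF, 10 LF and 8 CTRL). COL4A5 (r = 0.95) and COL4A6 (r = 0.91) climb along the axis in all 3 treatments, whereas COL9A3 (r = -0.26) does not, and 8 of its 10 HF points lie above every LF point.

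With this mean in the model the log2FC of both type IV chains for HF against CTRL changed sign, to 0.57 (SE 0.26) for COL4A5 and 0.94 (SE 0.36) for COL4A6, and did not pass the test (edgeR adjusted p = 0.371 and 0.292). For LF against CTRL they were 0.41 (SE 0.22) and 0.26 (SE 0.24), as a description. For HF against LF the value of COL4A6 was 0.87 (SE 0.25, adjusted p = 0.393) and that of COL4A5 was 0.25 (SE 0.21, adjusted p = 0.810). COL9A3 kept its direction, with 1.02 (SE 0.50, adjusted p = 0.395) for HF against CTRL and 1.76 (SE 0.31) for HF against LF. The mean comes from the same libraries and after the treatment, and MYLK is both a marker here and a gene most like COL4A5. Names came mostly from the study's table of LF against CTRL, which also put COL4A5 and COL4A6 forward. The markers were thus not chosen apart from the comparisons with CTRL.

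**Figure D4:**
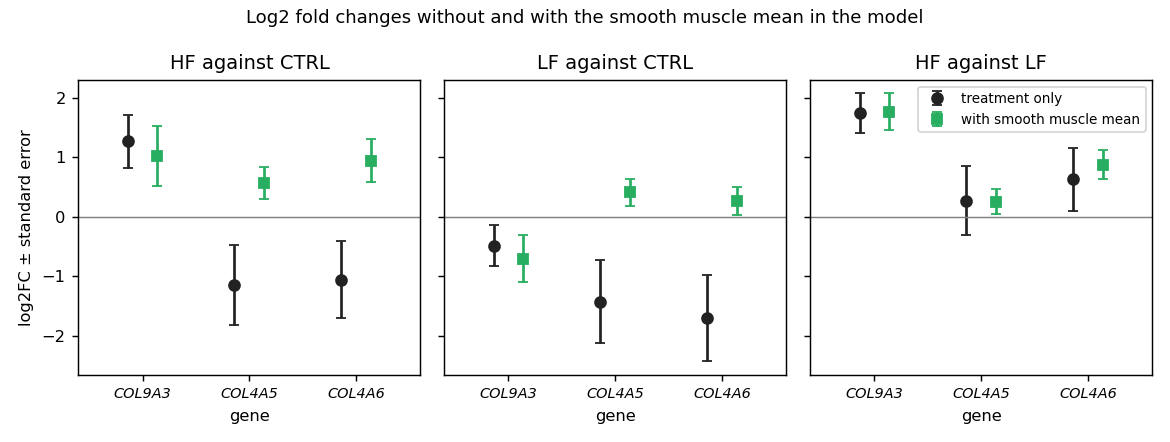
Log2FC with standard error of COL9A3, COL4A5 and COL4A6 for HF against CTRL, LF against CTRL and HF against LF, from the model with treatment alone (black circles) and with the mean of 6 smooth muscle markers added (green squares). COL4A5 and COL4A6 pass from below 0 to above 0 in both comparisons with CTRL (for COL4A5 in HF against CTRL -1.14 and 0.57), whereas COL9A3 keeps its sign in all 3.

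Other cell types could be followed only in part, because few of their markers carry a name. The 3 of 8 stromal fibroblast markers with a name (VIM, FBLN1, HAND2) had a mean log2 CPM of 8.85 to 9.52 in HF, 8.73 to 9.30 in LF and 8.68 to 9.22 in CTRL heifers. KRT8, the keratin that was the 1 named of 10 epithelial markers, was present in every heifer, at 79.3 to 187 CPM in HF, 113 to 242 in LF and 48.7 to 183 in CTRL. Of 5 mesothelial markers, the 3 with a name (UPK3B, UPK1B, WT1) had a mean of 4.54 to 5.77 in HF, 4.72 to 5.38 in LF and 4.55 to 5.70 in CTRL. Single markers had an unadjusted p under 0.05 in edgeR, as had 7.92% of all genes for HF against LF and 16.0% for HF against CTRL. For HF against LF the log2FC was -0.52 for KRT8 (SE 0.15, edgeR adjusted p = 0.450), 0.89 for WT1 (SE 0.29, adjusted p = 0.461), 0.42 for HAND2 (SE 0.18, adjusted p = 0.570) and -0.28 for UPK3B (SE 0.11, adjusted p = 0.540). The remaining markers had -0.39 for UPK1B (SE 0.21, adjusted p = 0.663), 0.11 for VIM and 0.06 for FBLN1. For HF against CTRL the log2FC was 0.40 for VIM (SE 0.12, edgeR adjusted p = 0.158), 0.32 for FBLN1 (SE 0.13, adjusted p = 0.241) and -0.52 for UPK3B (SE 0.15, adjusted p = 0.157). The remaining markers had 0.50 for UPK1B (SE 0.33, adjusted p = 0.476), 0.34 for WT1, 0.08 for KRT8 and 0.03 for HAND2. About the treatment means COL9A3 had r of -0.42 with KRT8. With the mesothelial markers r was 0.26 for WT1, -0.19 for UPK3B and 0.006 for UPK1B. With the stromal fibroblast markers r was 0.26 for VIM, 0.17 for FBLN1 and 0.27 for HAND2. Endothelial, pericyte, leukocyte and Schwann cell markers were not analysed here.

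The count of COL4A5 per count of COL4A6 within a heifer is free of library scaling. Its size depends on both gene lengths, so only its variation is described. It was 1.18 at the lowest, 1.96 at the median and 4.08 at the highest in HF heifers, 2.13, 3.06 and 6.80 in LF heifers and 2.03, 2.88 and 4.75 in CTRL heifers. The 6 HF heifers HF1, HF2, HF4, HF8, HF9 and HF10 had a lower ratio than every LF and every CTRL heifer, and the other 4 lay among them. The mean log2 ratio in HF minus that in LF was -0.57 (SE 0.25), with p = 0.0322 in a 2-sided permutation test and 0.193 after adjustment over the 6 ratio comparisons made. HF minus CTRL was -0.41 (SE 0.25, exact permutation p = 0.135, adjusted 0.404), and neither difference passed after adjustment. The permutations took each heifer as a unit of its own and took no account of heifers that shared a bull. LF minus CTRL, the pair that put both genes forward, was 0.16 (SE 0.22). It counted among the 6 comparisons in the adjustment, but is given as a description without its p. The log2 ratio had r of 0.15 with the smooth muscle mean over 28 heifers. Within treatments r was 0.39 in HF, 0.09 in LF and -0.06 in CTRL.

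**Figure D5:**
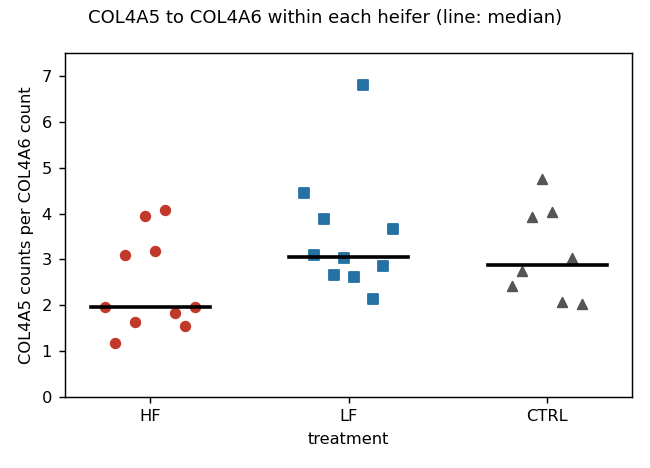
Counts of COL4A5 per count of COL4A6 in 10 HF, 10 LF and 8 CTRL heifers, with 1 point per heifer and a line at the median on a linear axis from 0. The median is 1.96 in HF heifers, 3.06 in LF heifers and 2.88 in CTRL heifers, and 6 HF heifers lie under every LF and CTRL heifer.

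The ratio of COL4A5 to COL4A1, which sets the restricted chain against the common one, did not pass the same test for HF against CTRL or HF against LF. Its mean log2 value in HF minus that in CTRL was -0.15 (SE 0.81, adjusted exact permutation p = 0.842) and HF minus LF was 0.56 (SE 0.64, adjusted permutation p = 0.591). LF minus CTRL was -0.71 (SE 0.85), again as a description without its p. The ratio itself ran from 0.0413 (HF4) to 0.555 (HF5) in HF heifers, from 0.0205 (LF2) to 0.474 (LF6) in LF heifers and from 0.0243 (CTRL8) to 1.24 (CTRL7) in CTRL heifers.

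The rest of the type IV family was less spread, and in the comparison of HF with CTRL the common chains had log2FC of -0.58 (SE 0.19, adjusted p = 0.170) for COL4A1 and -0.48 (SE 0.18, adjusted p = 0.218) for COL4A2. COL4A1 had a median of 912 CPM in HF heifers and 1255 in CTRL heifers. For HF against LF the values were -0.21 (SE 0.19, adjusted p = 0.854) and -0.02 (SE 0.20, adjusted p = 0.998). With HF and CTRL heifers, all 4 named type IV chains thus had negative log2FC and COL9A3 a positive one, and none passed after adjustment. COL4A3 and COL4A4, and COL9A1 and COL9A2, the partners of COL9A3, carry no name in the sources used and were not analysed here.

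Of the 42 collagen chains listed besides the 3 members, 6 carry a name. In HF against CTRL 4 of them were lower and 2 higher at an unadjusted p under 0.05, beside 8.27% and 7.76% of all genes tested, and 0 were called after adjustment. Their median log2FC was -0.50 beside -0.02 over all genes tested. The lower ones were COL4A1, COL4A2, COL12A1, a fibril-associated collagen of dense connective tissue (-1.23, SE 0.31, adjusted p = 0.145), and COL6A3, a chain of the beaded filaments of type VI collagen (-0.52, SE 0.19, adjusted p = 0.202). The higher ones were the transmembrane collagen gene COL23A1 (1.09, SE 0.30, adjusted p = 0.150) and COLQ, the collagen tail that anchors acetylcholinesterase (0.82, SE 0.25, adjusted p = 0.165). Names came mostly from the rows with the smallest p in the study's table of LF against CTRL, so a named gene is more likely than others to have a small p in comparisons with CTRL. In HF against LF, 1 of the 6, COL23A1, was higher at an unadjusted p under 0.05 (0.58, SE 0.24, adjusted p = 0.559) and 0 were lower, beside 3.32% and 4.60% of all genes.

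The genes that build, bind or accompany collagen passed no test either. ITGA1, the α1 subunit of a receptor for type IV collagen, had a log2FC of -1.09 (SE 0.29, adjusted p = 0.149) for HF against CTRL, and the collagen-activated kinase DDR2 had -0.66 (SE 0.28, adjusted p = 0.266). For HF against LF the values were -0.35 for ITGA1 and -0.02 for DDR2. P4HA3, a subunit of a prolyl hydroxylase that stabilizes the triple helix, had 0.80 (SE 0.26, adjusted p = 0.461) for HF against LF. The other named genes of collagen folding and crosslinking, P3H2 and LOX, had 0.35 and 0.14 in that pair. For HF against CTRL P4HA3 had 0.21, P3H2 -0.41 and LOX -0.29. Among basement membrane proteins, 3 of 18 listed carry a name, and the laminin chains LAMA1 and LAMB1 had 0.40 and 0.00 and the proteoglycan AGRN 0.21 for HF against CTRL. Of 16 cartilage genes listed 4 carry a name, and for HF against CTRL 2 of them had log2FC below 0 and 2 above. ACAN, the large proteoglycan of cartilage, had -1.02 (SE 0.34, adjusted p = 0.179) and the link protein HAPLN1 -1.61 (SE 0.77, adjusted p = 0.312), while the matrilins MATN2 and MATN4, adaptor proteins of the extracellular matrix, had 0.34 (SE 0.14, adjusted p = 0.263) and 0.57 (SE 0.28, adjusted p = 0.321). About the treatment means r with COL9A3 was -0.03 for ACAN, -0.12 for HAPLN1, 0.19 for MATN2 and -0.34 for MATN4.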

How the data were processed

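RNA was sequenced from 1 endometrial biopsy of each of 28 heifers. The authors made libraries with a stranded mRNA kit, trimmed the reads, mapped them with STAR to the bovine assembly ARS-UCD1.2 and took uniquely mapped reads for each Ensembl gene, and they deposited whole-number counts with no normalization. STAR 2.6.1b and Subread 1.6.3 stand in the submitters' processing notes. How strand was set in the counting was not given in the sources used here, so reads of overlapping genes on opposite strands may not be told apart. The deposited counts of COL9A3 are not those behind the study's normalized table, and the cause was not tested.

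Groups came from the sample labels, and bull, breed and study replicate from the study's animal list. Gene names (1522 of 24596 IDs) came from the study's supplement and tables. The 3 genes were named by the study, and the other genes named are the listed collagens, up to 3 genes per list with the smallest p in HF against CTRL or HF against LF, the named marker genes of each cell type, MATN4, added after its values were seen so that its list is whole, and the 5 named genes with the highest r with each member, of which 1 is not reported here. The members and lists were chosen with earlier results of these data known.

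Each pair was fitted on its own heifers over all genes in R 4.3.3 with edgeR 4.0.16 (TMM, filterByExpr at a minimum count of 10, quasi-likelihood test, Benjamini-Hochberg adjusted p under 0.05), and study replicate and breed over all 28 heifers with treatment as a covariate. Standard errors were taken as log2FC over the root of the F statistic. Log2 CPM used a prior count of 2. DESeq2 1.42.0 was the other tool, run on every gene with reads in the heifers compared, so its shares are over more genes. Of these steps, the edgeR test of each pair of treatments was tried on simulated counts with known changes. Ratios were compared by permutation of labels (exact with CTRL, 100000 resamples for HF and LF, SciPy 1.17.1). Alternatives were DESeq2 size factors, no filter, all 28 heifers in 1 fit, covariates, the replicate block, summed counts of a bull, 2 counts added in ratios, each heifer left out and, chosen after seeing the data, each study replicate alone.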

Additional observations from a re-analysis of the deposited data

How the results depend on the processing

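No tested comparison of the 3 genes or their ratios passed the adjusted threshold under any alternative. For HF against CTRL the adjusted p of COL9A3 ran from 0.0715 (DESeq2) to 0.874 (study replicate 1 alone), that of COL4A5 from 0.300 (without CTRL2) to 0.934 and that of COL4A6 from 0.292 to 0.947. Apart from leaving out heifers, 86 alternative values of comparisons fitted with a test kept their direction and 5 turned, and of those without a test 42 moved by less than the spread and 2 by more. With the mean of the smooth muscle markers added to the model, COL4A5 and COL4A6 for HF against CTRL turned to 0.57 and 0.94, for LF against CTRL to 0.41 and 0.26, and COL4A6 for Limousin against Charolais crosses to 0.17. In study replicate 2 alone, chosen after seeing the data, HF against LF turned to -0.49 for COL4A5 and -0.056 for COL4A6, and the cause was not tested. With single heifers left out, COL4A5 for HF against LF ranged from -0.040 (without HF6) to 0.69 (without LF10), and the log2 ratio of COL4A5 to COL4A1 for HF minus CTRL from -0.56 (without CTRL8) to 0.25 (without CTRL7), being above 0 also without CTRL6 (0.14), HF4 (0.06) and HF8 (0.0029). The other comparisons kept their sign.

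Heifers with the same replicate number in 2 treatments deviated together (r over 0.1) in 5 of 8 numbers for HF and CTRL. For LF and CTRL it was 5 of 8, and for HF and LF 1 of 10. With CTRL the check does not decide whether the numbers are pairs. There r ran from -0.353 to 0.308 for HF and from -0.4 to 0.426 for LF. The main fits do not use the numbers, and values with the replicate block are given below. Except for number 5 with CTRL, same-numbered heifers belong to the same study replicate, and with study replicate as a covariate the log2FC for HF against CTRL was 1.27 for COL9A3, -1.10 for COL4A5 and -0.98 for COL4A6. With the replicate block the log2FC for HF against CTRL was 0.98 for COL9A3, -0.60 for COL4A5 and -0.24 for COL4A6, for LF against CTRL -0.22, -1.33 and -1.43, and for HF against LF 1.54, 0.33 and 0.93, and no call changed. With 8 to 10 heifers per treatment and spreads of 23.1-fold to 54.1-fold, standard errors of up to 0.72 on the log2 scale (treatment alone in the model) limit what differences can be detected.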
